A study of Mus musculus with 4 samples.

Results

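Fc receptors are the cell's readers of antibody, and the 6 mouse genes Fcgr1, Fcgr2b, Fcgr3, Fcgr4, Fcer1g and Fcgrt were followed here across 4 arrays of bone marrow-derived dendritic cells. They were taken by name, as the non-control probes whose RefSeq transcript belongs to 1 of the 6 symbols. All 6 genes were found, on 7 of the 56605 probes of the array and among 23451 genes with a value. Fcgr2b had 2 probes and each of the other genes had 1. All 7 probes were well above background on all 4 arrays, so every member has a measured level in every condition.

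The cells came from femur marrow of male wild-type C57BL/6J mice and were differentiated in MEM, supplemented with 10% FBS and 10 ng/ml of the myeloid growth factor GM-CSF until day 6. A control culture was left without stimulation (medium), and the others received 100 ng/ml LPS, the endotoxin of Gram-negative bacteria, 20 mM L-(+)-LA, which the series title calls lactate, or both together, for 4 h. The labels gave no time for medium, no pH for LA, no age of the mice and no statement on pooled animals. Each of the 4 groups was 1 array on 1 slide, so there were no replicates, no p-values and no spread between cultures, and each difference is that of an array from another.

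Receptors for the Fc portion of IgG work as a balance. Fcgr1, Fcgr3 and Fcgr4 encode activating ligand-binding chains, which need the signalling adaptor encoded by Fcer1g, the common gamma chain whose ITAM motif recruits the kinase Syk. Fcgr2b encodes the inhibitory receptor of the family, whose ITIM motif recruits the phosphatase SHIP-1, the product of Inpp5d. On dendritic cells these receptors take up immune complexes for antigen presentation, and the weight of activating against inhibitory receptors sets how readily the cell responds to them. Fcgrt encodes the heavy chain of the neonatal Fc receptor, an MHC class I-like molecule that pairs with beta-2 microglobulin and binds IgG and albumin in acidic endosomes.

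Levels are log2 of the background-subtracted intensity minus log2 of that array's 75th percentile, so a level of 0 is that percentile. An error after ± is the SD between spots of probes that were printed 10 times at a similar brightness, carried through to the difference. It covers the printing and reading of spots only, not labelling, culture or animal. A gene counted as apart when its probe cleared background well on each of the arrays compared and differed by at least 1 log2 unit, a 2-fold difference. Of 59305 non-control spots, 56.5% to 64.1% were well above background, 0 were saturated, and the median intensity was 25.3 to 29.9 over a local background of 23 to 24. As a check on the labels, 5 genes of the LPS response were chosen (Il6, Il12b, Tnf, Il1b and Cxcl10). All 5 were at least 2-fold higher on the LPS array than in medium, with a median difference of 5.85. All 5 were at least 2-fold lower with LPS plus LA than with LPS, with a median of -6.78. Against medium, LPS plus LA had 0 of them 2-fold higher and 1 lower, with a median of -0.48. Against LA alone 1 was higher and 0 lower, with a median of 0.59. For LA alone against medium 0 were higher and 4 lower, with a median of -1.06. Under an alternative background correction, normexp, 1 was lower there. These genes therefore check the label of the LPS array only. They cannot show that the culture with both received LPS, as a culture without LPS would also read low.

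The high-affinity receptor gene Fcgr1 (transcript NM_010186) stood far apart on the LPS array. Its protein is the Fc receptor that can bind monomeric IgG. Its level was 1.48 in medium, 3.88 after LPS, 1.41 after LA and 1.04 after LPS plus LA, from intensities of 491, 2522, 415 and 297. The LPS array was therefore high and the other 3 lay close together, with LPS plus LA the lowest. LPS was 2.39 ± 0.077 log2 units above medium, a 5.26-fold difference, and 1.70% of the genes measured in that comparison differed by more in either direction. LPS plus LA was 2.83 ± 0.091 below LPS alone, a 7.12-fold difference, and 1.55% of measured genes lay lower.

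The remaining comparisons of Fcgr1 were small by contrast. LA alone differed from medium by -0.07 ± 0.082, which is within the error between spots, and its sign changed with the scaling, from -0.17 to 0.08. LPS plus LA lay 0.36 ± 0.095 below LA alone (1.29-fold) and 0.44 ± 0.096 below medium (1.35-fold). The LA difference in the presence of LPS minus that in its absence was -2.76 ± 0.12, and 0.97% of genes lay lower on this difference of differences, which has no test. Its 2 wide differences share the LPS array, so they are not separate evidence for its high value. The whole range of Fcgr1 over the 4 arrays was 2.83 log2 units, and 2.21% of the 13368 genes measured on every array had a wider one, against a median range of 0.72.

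**Figure D1:**
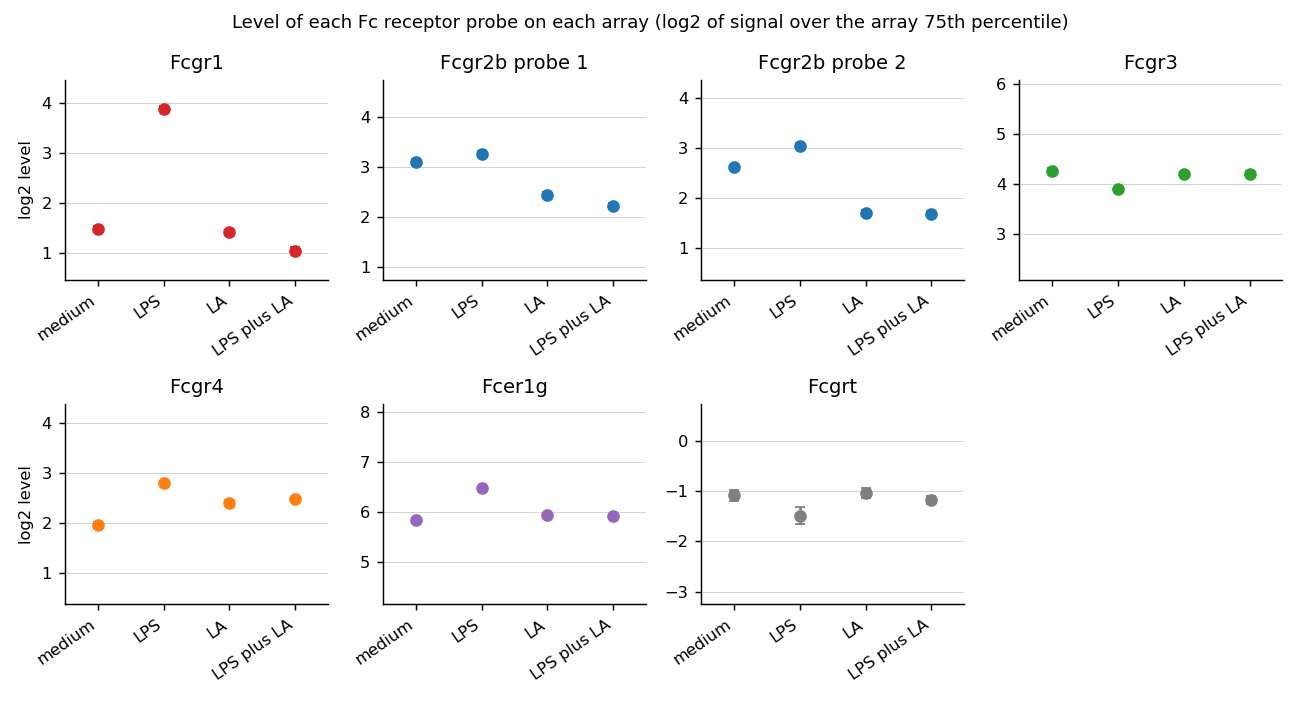
Log2 level (0 is the array's 75th percentile) of the 7 Fc receptor probes in medium, LPS, LA and LPS plus LA, with 1 point per array and bars of 1 SD between spots; every panel spans the same height in log2 units. Fcgr1 has its high point with LPS (3.88) and 3 low points from 1.04 to 1.48, both Fcgr2b probes are lower on the arrays with LA than on the others, and Fcgr3 and Fcgrt vary least.

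The start region of Fcgr1 is shown with that of the other activating receptor genes because these are the activating ligand-binding chains, and the other members' windows held none of the patterns searched. The windows run from 250 bases before to 50 bases after the RefSeq transcription start, are given 5′ to 3′ on the gene's own strand in the GRCm38.p6 build, and carry matches to 4 searched patterns in capitals. The patterns, searched on both strands, were the interferon-gamma activation site TTCNNNGAA, the interferon-stimulated response element (2 copies of GAAA, 2 bases apart), the PU.1-type ets core GAGGAA and the NF-kB consensus. Fcgr1 lies at chr3:96293920-96294219 (minus strand), Fcgr4 at chr1:171018676-171018975 (plus strand) and the window of Fcgr3 at chr1:171059354-171059653 (minus strand).
Fcgr1: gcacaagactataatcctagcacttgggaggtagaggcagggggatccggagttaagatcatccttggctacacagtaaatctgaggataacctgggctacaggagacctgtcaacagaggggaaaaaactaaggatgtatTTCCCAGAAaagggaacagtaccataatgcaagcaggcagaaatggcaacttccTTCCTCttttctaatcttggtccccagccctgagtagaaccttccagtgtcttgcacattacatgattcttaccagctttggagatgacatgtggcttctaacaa
Fcgr4: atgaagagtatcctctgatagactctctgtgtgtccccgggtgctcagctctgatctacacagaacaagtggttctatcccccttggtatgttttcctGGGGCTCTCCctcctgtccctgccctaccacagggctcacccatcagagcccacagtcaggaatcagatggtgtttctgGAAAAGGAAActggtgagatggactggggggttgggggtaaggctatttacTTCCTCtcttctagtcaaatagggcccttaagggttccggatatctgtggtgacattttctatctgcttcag
Fcgr3: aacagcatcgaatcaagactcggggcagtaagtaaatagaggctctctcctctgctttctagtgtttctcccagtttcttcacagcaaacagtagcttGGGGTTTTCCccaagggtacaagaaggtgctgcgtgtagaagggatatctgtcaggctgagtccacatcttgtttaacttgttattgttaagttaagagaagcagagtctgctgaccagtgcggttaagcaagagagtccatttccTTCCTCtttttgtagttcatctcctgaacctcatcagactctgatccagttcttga

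Fcgr1 held 1 match to the interferon-gamma activation site at -109 to -101 bases from the start and 1 PU.1-type core at -55 to -50. Fcgr4 held a match to the interferon-stimulated response element at -73 to -64, a PU.1-type core at -22 to -17 and an NF-kB match at -152 to -143. The shown window of Fcgr3 held a PU.1-type core at -6 to -1 and an NF-kB match at -152 to -143. Fcgr3 has a second window from another annotated start, in which they lie at -15 to -10 and -161 to -152. The 3 PU.1-type cores of the shown windows lie on the opposite strand, so the capitals there read TTCCTC. The windows of Fcgr2b, Fcer1g and Fcgrt held none of the 4 patterns, which says only that these letters are not in those windows. Of 32851 RefSeq promoter windows of this length, 8.30% held the interferon-gamma activation site, 3.44% the interferon-stimulated response element, 28.3% the PU.1-type core and 4.51% the NF-kB consensus. A match is a description of letters, and nothing on these arrays measured binding at it.

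**Figure D2:**
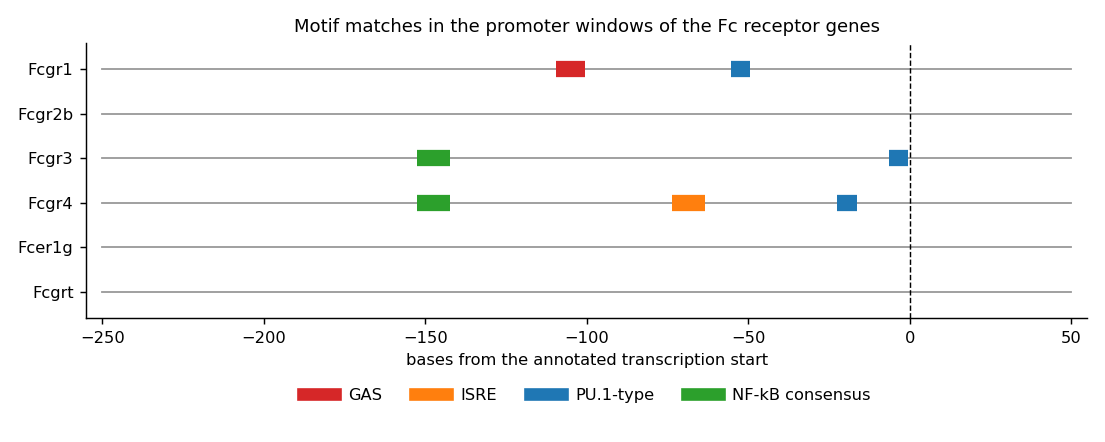
Map of the 4 searched patterns in the first RefSeq promoter window of each of the 6 Fc receptor genes, with the x axis as distance in bases from the transcription start, from 250 before to 50 after; each coloured mark is 1 match. Matches lie in the windows of Fcgr1, Fcgr4 and Fcgr3, and those of Fcgr2b, Fcer1g and Fcgrt are empty.

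Fcgr4 (NM_144559), an activating receptor gene of myeloid cells, was also highest with LPS, by less than Fcgr1. Its level was 1.96 in medium, 2.79 after LPS, 2.41 after LA and 2.47 after LPS plus LA. The medium array was the lowest and the LPS array the highest, and the arrays with LA lay between them. LPS was 0.83 ± 0.080 above medium (1.78-fold) and LA alone was 0.45 ± 0.081 above it (1.36-fold), both under the 2-fold mark. LPS plus LA was 0.51 ± 0.082 above medium, and 0.06 ± 0.078 above LA alone, which is within the error between spots. LPS plus LA lay 0.32 ± 0.078 below LPS, but that sign did not hold, since quantile normalization gave 0.06 and the authors' deposited table, scaled as they scaled it, gave 0.10.

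Fcgr3 (NM_010188), a low-affinity activating receptor for immune complexes, was the activating chain that was lower with LPS than in medium. Its level was 4.26 in medium, 3.90 after LPS, 4.20 after LA and 4.20 after LPS plus LA, so the LPS array stood alone below the others. LPS was 0.37 ± 0.069 below medium, a 1.29-fold difference. LPS plus LA was 0.30 ± 0.071 above LPS alone, a difference that ran from 0.19 to 0.83 over the scalings. Under the scaling used here the 3 arrays other than LPS lay within 0.07 of each other, and LPS plus LA minus LA was 0.00 ± 0.070. Its range of 0.37 was narrow under that scaling, with 81.3% of genes wider. Fcgr3 and Fcgr2b are close in sequence over their extracellular part, and whether their probes bind each other's transcripts was not tested.

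Fcer1g (NM_010185) encodes the adaptor that these activating chains share. Its level was 5.85 in medium, 6.48 after LPS, 5.95 after LA and 5.93 after LPS plus LA. LPS was again the high array and the other 3 lay within 0.10 of each other. LPS was 0.63 ± 0.068 above medium (1.55-fold) and LPS plus LA was 0.55 ± 0.068 below LPS (1.46-fold). That lower value shrank to -0.01 under quantile normalization and -0.13 in the authors' deposited table, although it stayed below the median of all genes under every scaling (-0.67 to -0.09). The other gaps, 0.10 ± 0.066 for LA against medium and -0.02 ± 0.066 for LPS plus LA against LA, were close to the error between spots. Over the scalings the former ran from 0.03 to 0.34 and the latter from -0.07 to 0.01.

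The inhibitory receptor gene Fcgr2b was lower on both arrays with LA than on both arrays without it. Its brighter probe (transcript NM_010187) read 3.09 in medium, 3.25 after LPS, 2.44 after LA and 2.22 after LPS plus LA. Its dimmer probe (transcript NM_001077189) read 2.62, 3.05, 1.71 and 1.68 in the same order. Both probes placed LPS highest, medium next and the arrays with LA lowest, and on the dimmer probe LA and LPS plus LA differed by 0.03, within the error between spots.

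LA alone was 0.65 ± 0.076 below medium on the brighter Fcgr2b probe (1.57-fold) and 0.91 ± 0.078 below on the dimmer one (1.87-fold). LPS plus LA was 1.04 ± 0.077 below LPS (2.05-fold) and 1.37 ± 0.085 below it (2.58-fold) on the same probes. Both contrasts of LA, which share no array, had Fcgr2b lower on both probes, and the brighter probe kept that direction under each scaling tried. The value against LPS on the brighter probe was close to the 2-fold mark, and it was -0.62 under quantile normalization, -0.76 with the percentile limited to probes that were above background everywhere, and -0.62 in the authors' deposited table. LPS alone was 0.16 ± 0.074 above medium on the brighter probe and 0.44 ± 0.076 on the dimmer one, and the first of these changed sign with the scaling, to as low as -0.12. Marker lists of dendritic cells, the labelled cell type, and of other cells also differed between arrays with and without LA. With LA against medium the median difference was -0.38 for the dendritic cell markers and -0.40 for the macrophage and monocyte markers, against 0.54 for the neutrophil markers and 0.55 for the mast cell, basophil and eosinophil markers. Under normexp the dendritic cell value was -0.10. Between LPS plus LA and LPS the median was -0.53 for the dendritic cell markers, with 6 of 13 lower and 2 higher, -0.45 for the macrophage and monocyte markers, and 0.96 for the neutrophil markers, with 7 of 14 higher and 0 lower. Over the scalings these medians ran from -0.64 to -0.11, from -0.57 to -0.04 and from 0.78 to 1.38. Their part in the result was not tested. In RNA of a whole culture, fewer cells of a type and less RNA per cell cannot be told apart.

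**Figure D3:**
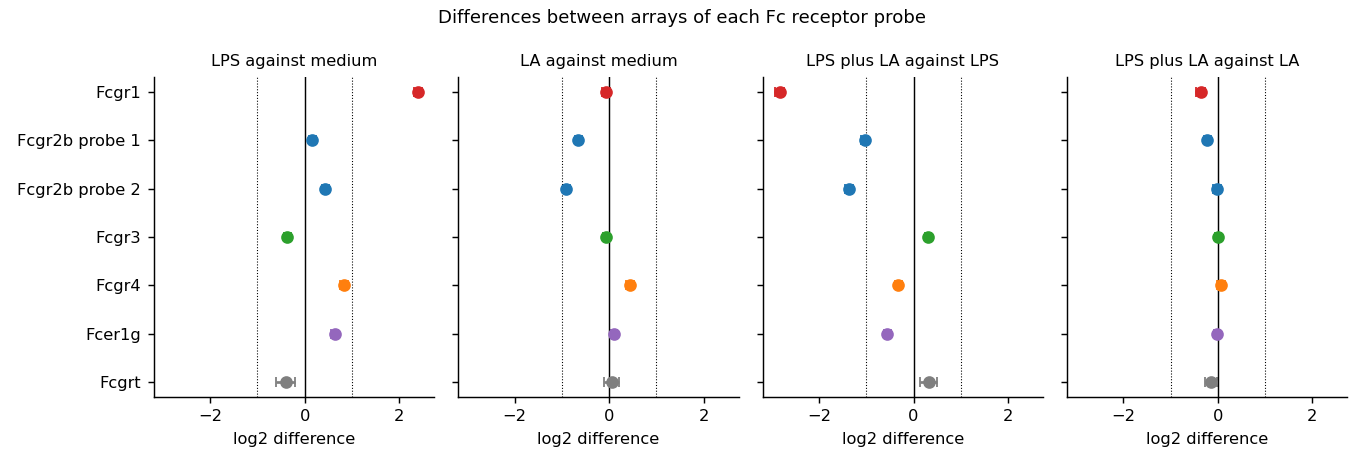
Log2 differences of the 7 Fc receptor probes in 4 comparisons, with bars of the error between spots and dotted lines at 1 log2 unit either way, the 2-fold mark. Fcgr1 lies outside the lines for LPS against medium (2.39) and for LPS plus LA against LPS (-2.83), both Fcgr2b probes lie below the lower line in the latter comparison, and no probe leaves the lines for LA against medium or for LPS plus LA against LA.

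Because both kinds of receptor were read on the same arrays, the difference between their differences does not depend on how the arrays were scaled to each other by a factor. With LPS against medium, Fcgr1 was displaced from Fcgr2b by 2.23 log2 units on the brighter probe and 1.96 on the dimmer, 4.71-fold and 3.88-fold toward Fcgr1. Fcgr3 was displaced the other way, by -0.53 and -0.80, and Fcgr4 by 0.67 and 0.39. With LA against medium, all activating chains and the adaptor were displaced upward from Fcgr2b: Fcgr1 by 0.58 and 0.83, Fcgr3 by 0.59 and 0.84, Fcgr4 by 1.10 and 1.35, and Fcer1g by 0.76 and 1.01.

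With LPS plus LA against LPS the chains parted. Fcgr1 was displaced downward from Fcgr2b by -1.80 and -1.46, and Fcgr3 upward by 1.34 and 1.67. Fcgr4 was displaced by 0.71 and 1.05, and Fcer1g by 0.49 and 0.82. With LPS plus LA against medium, Fcgr4 had the widest displacement of the 4, at 1.39 and 1.44, and Fcgr1 the narrowest, at 0.44 and 0.49. The errors between spots of these displacements were 0.10 to 0.13. A displacement says that the genes differed unequally between arrays and gives no ratio of the proteins or of the transcripts.

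Fcgrt (NM_010189) differed little between arrays for the error of its low intensities. Its level was -1.08 in medium, -1.48 after LPS, -1.03 after LA and -1.17 after LPS plus LA, from intensities of 61.3 to 83.2. The LPS array was the lowest, and the other 3 lay within 0.14 of each other. LPS was 0.41 ± 0.20 below medium, about 2 errors between spots, and LPS plus LA was 0.32 ± 0.18 above LPS. Over the scalings the former difference ran from -0.64 to -0.14 and the latter from 0.17 to 0.74. The protein of Fcgrt is exported to the surface only with beta-2 microglobulin. Its partner B2m, by contrast, read 5.82, 6.67, 5.38 and 5.29, which is 0.85 above medium with LPS and 1.38 below LPS with LPS plus LA.

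Set against all genes, 1 member stood 2-fold apart with LPS. For LPS against medium, 8.07% of 13592 measured genes were at least 2-fold higher and 7.6% at least 2-fold lower, and of the 6 members 1 was higher (Fcgr1) and 0 were lower. The median difference of the members was 0.39, beside -0.00 for all genes. For LA against medium, 3.06% of 14555 genes were higher and 3.39% lower, and 0 of the 6 members were either.

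When LPS plus LA was set against LPS, 11.5% of 13631 genes were higher and 12.4% lower, and of the members 0 were higher and 2 lower, Fcgr1 and Fcgr2b. Only Fcgr1 of these remained at least 2-fold lower under quantile normalization, under the limited percentile, and in the authors' deposited table. The median of the members was -0.44, beside 0.01 for all genes. Against LA alone, LPS plus LA had 0.912% of 14905 genes higher and 1.48% lower, and 0 members were either. Against medium the shares were 2.96% and 3.99% of 14520 genes, again with 0 members. At 1.5-fold, 3 members were higher with LPS than in medium (Fcgr1, Fcgr4 and Fcer1g) beside 15.6% of genes, 1 was lower with LA than in medium (Fcgr2b) beside 10.9%, and 1 was lower with LPS plus LA than in medium (Fcgr2b) beside 12.7%. On the difference of differences, 9.06% of 13368 genes were at least 1 log2 unit higher and 9.59% lower, with 1 member, Fcgr1, lower, and at 1.5-fold 3 members were lower (Fcgr1, Fcgr4 and Fcer1g) beside 18.9% of genes.

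The split of all genes moved with the scaling. Of genes 2-fold apart, 51.5% were on the higher side for LPS against medium (30.2% to 68.0% over the scalings), 47.4% for LA against medium (29.9% to 65.6%), 48.2% for LPS plus LA against LPS (36.2% to 76.7%), 38.2% for LPS plus LA against LA (25.8% to 44.7%) and 42.6% for LPS plus LA against medium (26.4% to 65.5%). The authors' deposited table shifted the median gene by -0.23 on the LPS array, 0.16 on the LA array and 0.19 on the array with both, relative to medium. Relative to the median of all genes, Fcgr1 kept 2.11 to 2.40 for LPS against medium and -2.85 to -2.53 for LPS plus LA against LPS. Fcgr2b kept -0.70 to -0.59 for LA against medium and -1.11 to -0.70 for LPS plus LA against LPS. Fcgr3 kept -0.59 to -0.36 and Fcgr4 0.67 to 0.84 for LPS against medium.

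**Figure D4:**
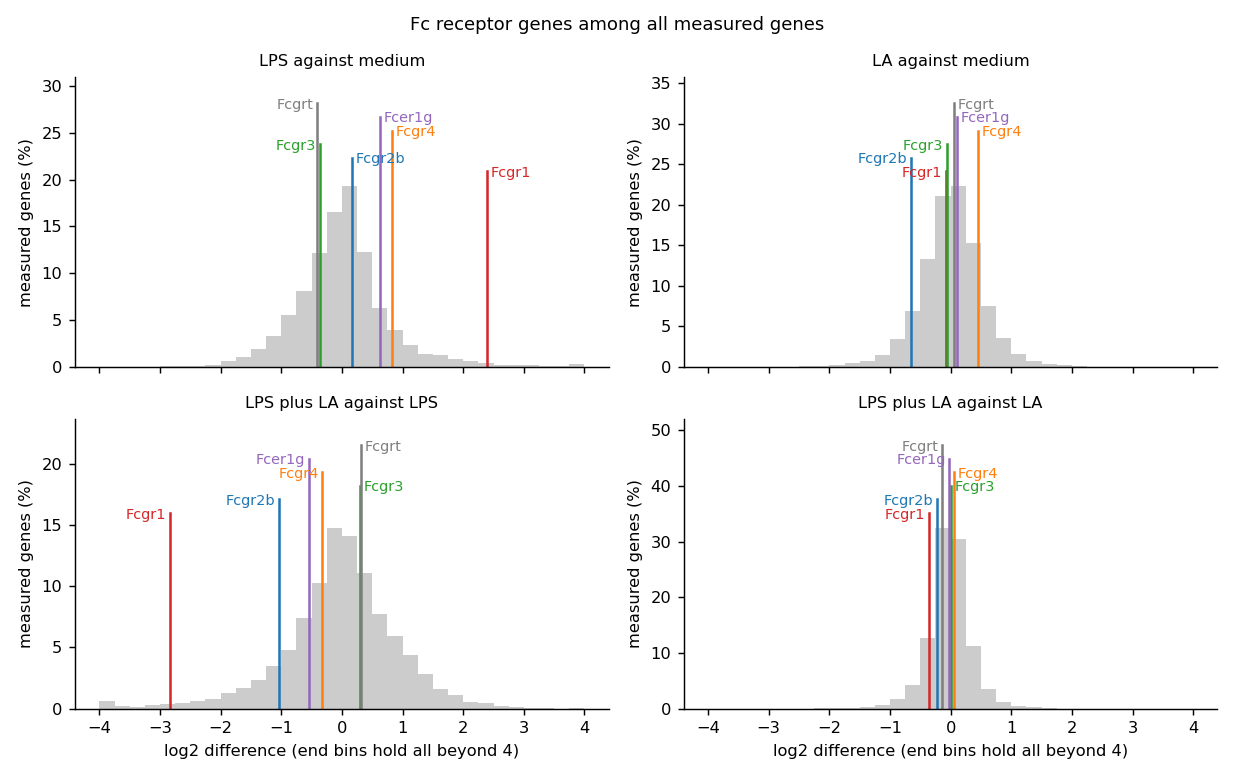
Share of measured genes, in percent, by log2 difference in 4 comparisons, with the 6 members as labelled vertical lines; the end bins hold genes beyond 4 log2 units. Fcgr1 lies in the upper tail of the first panel (2.39) and in the lower tail of the panel for LPS plus LA against LPS (-2.83), and the other members lie within 1.04 of 0.

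The 15 other Fc receptors and partners were listed from knowledge of the family. For LPS against medium 9 of them were measured, with 1 higher and 0 lower (8.07% and 7.6% of all genes) and a median of 0.27. That 1 was Trim21, the cytosolic Fc receptor that targets antibody-coated particles for degradation, at -3.27 in medium, 0.24 after LPS, -3.43 after LA and -3.74 after LPS plus LA. Trim21 was thus 3.51 higher with LPS than in medium and 3.98 lower with LPS plus LA than with LPS. Its high point was on the same array as that of Fcgr1. Its values outside the LPS array lay near the level at which probes stop clearing background well, so the size of these differences is uncertain.

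For LA against medium 9 were measured, with 1 higher, 0 lower (3.06% and 3.39% of all genes) and a median of 0.03. A further 2 were at least 2-fold higher by a bound. The measured one was Fcmr, the IgM receptor, at -3.44 in medium and -2.27 with LA, and under normexp 0 were higher. The bounds were those of Fcer1a and Fcrl1. Fcer1a, the IgE-binding chain of mast cells and basophils, was not well above background in medium and was at least 3.10-fold higher with LA. Ms4a2, the beta chain of that IgE receptor, read -0.31, 0.23, 0.60 and 0.74. Its gap for LPS plus LA against medium was 1.05. As Fcer1a and Ms4a2 mark mast cells and basophils, the 13 markers of those cells and eosinophils are given beside them: their summed level relative to the percentile was 71.1 in medium, 116 after LPS, 126 after LA and 135 after LPS plus LA, and the part of these in the result was not tested.

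Between LPS plus LA and LPS, 10 of the 15 were measured, with 1 higher, 2 lower (11.5% and 12.4% of all genes) and a median of 0.04. Fcrl1 was higher by a bound of at least 3.24-fold. The higher one was Cd300lf, an inhibitory relative with a phospholipid-binding domain, at 3.05, 2.84, 3.83 and 3.91 in the usual order, and the lower ones were Trim21 and B2m. Under normexp and under median scaling 0 were higher. Between LPS plus LA and LA, 0 of 11 were 2-fold apart either way, beside 0.912% of all genes higher and 1.48% lower. Pigr, the transporter of polymeric IgA, read 5.56 to 6.00, although its other probe was not measured in these comparisons. The Fc receptor-like genes Fcrl5 (0.84 to 1.06), Fcrls (1.09 to 1.37) and Fcrlb (-0.81 to 0.14) kept within 2-fold. Fcer2a, Fcamr, Fcrla and Fcrl6 were not well above background on any array.

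Downstream of the activating receptors, 37 signalling genes were measured for LPS against medium. Of these 6 were higher, 0 lower and 31 neither, with a median of 0.12, beside 8.07% of all genes higher and 7.6% lower. Malt1, the paracaspase that works with Card9 and Bcl10, read 3.42 in medium, 6.08 after LPS, 1.45 after LA and 1.30 after LPS plus LA. Its differences were 2.66 for LPS and -1.97 for LA, each against medium, and -4.78 for LPS plus LA against LPS. Lcp2, the adaptor SLP-76 behind Syk, read 1.54, 3.32, 1.45 and 1.37, with its high point on the LPS array. Syk itself read -0.04, 0.52, -0.28 and 0.30 and stayed within 2-fold.

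For LA against medium 1 of the 37 was higher, Blnk at 1.29, and 1 lower, Malt1, beside 3.06% and 3.39% of all genes. The median of the list was -0.09, and 0 were higher under normexp. Between LPS plus LA and LPS 36 were measured, with a median of -0.22. Beside 11.5% of all genes higher and 12.4% lower, 0 of these were higher, 8 lower and 28 neither. The lower ones included Lyn (-1.23), a kinase that phosphorylates both ITAM and ITIM motifs. Fyn was lower by a bound. Against LA, 0 of 36 were 2-fold apart, beside 0.912% of all genes higher and 1.48% lower. The median of the list for LPS plus LA against LPS was -0.33 to 0.20 over the scalings, and -0.23 to -0.07 relative to the median of all genes, and the authors' deposited table had 4 higher and 6 lower.

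With LPS against medium 8.07% of all genes were higher and 7.6% lower. Of the 16 inhibitory signalling genes 3 were higher, 4 lower and 9 neither, with a median of -0.31. The count of higher genes did not hold, with 0 higher and 5 lower under quantile normalization, under the limited percentile and in the authors' deposited table, and 2 each way under normexp background correction. Inpp5d, the SHIP-1 phosphatase that Fcgr2b recruits, read -0.55 in medium, -2.33 after LPS, -0.58 after LA and -0.42 after LPS plus LA. It was 1.79 lower with LPS than in medium and 1.92 higher with LPS plus LA than with LPS, so its low point stood on the array on which Fcgr1 was high. Ptpn22, a phosphatase of Src-family kinases, was 2.40 lower with LPS, and Dok2, an adaptor, 1.55 lower. Pirb (1.15), Dok1 (1.10) and Lilrb4a (1.07) were the 3 higher genes under the scaling used here, of which Pirb and Lilrb4a are inhibitory receptors with ITIM motifs like Fcgr2b.

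For LA against medium 1 of the 16 inhibitory genes was higher (Sh2b3, 1.03) and 0 were lower, beside 3.06% and 3.39% of all genes. The median of the list was 0.00, with 0 higher under normexp and under median scaling. Against LPS, LPS plus LA had 6 genes higher, 3 lower and 7 neither, beside 11.5% of all genes higher and 12.4% lower. The median of the list was 0.33, and 0.19 to 0.54 relative to all genes over the scalings. Over the same scalings the lower genes of the list numbered 0 to 3. Sh2b3 (2.36), an adaptor, and Ptpn22 (2.05) were the highest, and Dok1 (-1.36) and Lilrb4a (-1.23) the lowest. Ptpn6, the SHP-1 phosphatase, read 4.13, 4.12, 3.90 and 3.54. Against LA, 0 of the 16 were 2-fold apart, beside 0.912% of all genes higher and 1.48% lower.

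**Figure D5:**
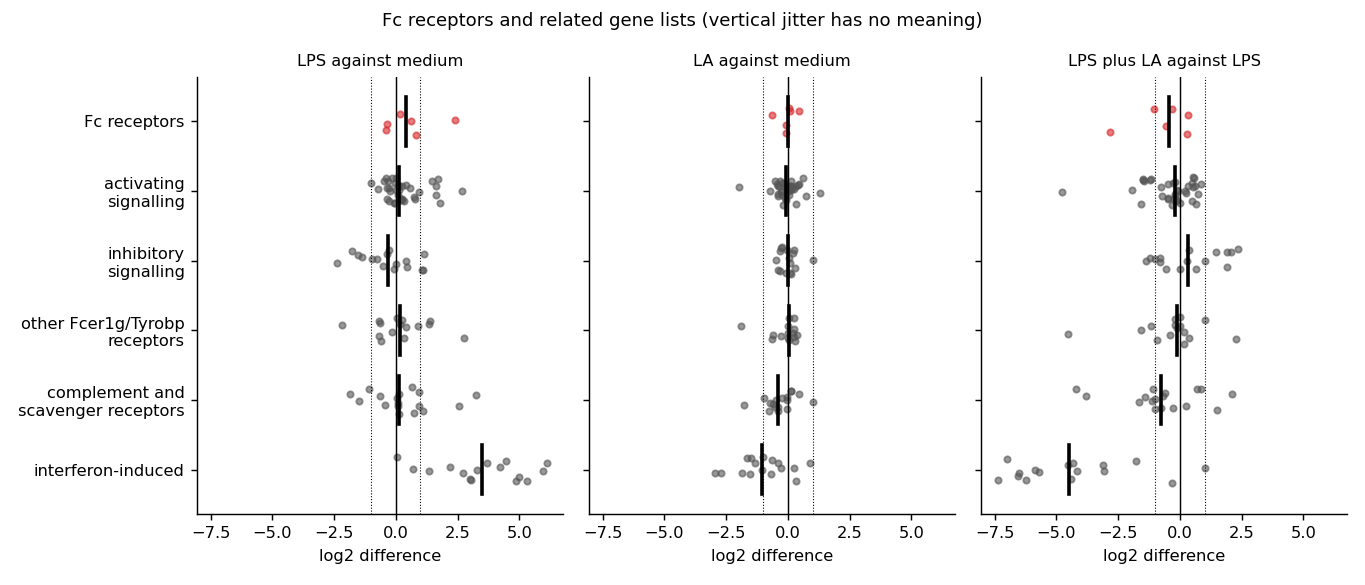
Log2 differences of the measured members of 6 gene lists in 3 comparisons, with 1 point per gene and a black bar at the median of the list. The interferon-induced genes lie far above 0 with LPS (median 3.48) and far below it with LPS plus LA against LPS (median -4.48), and the medians of the Fc receptor signalling lists stay within 0.33 of 0.

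Receptors that share the adaptor Fcer1g or its relative Tyrobp were also read, as 15 measured of 17. For LPS against medium 3 were higher, 1 lower and 11 neither, beside 8.07% of all genes higher and 7.6% lower. The median of the list was 0.17, and under normexp 1 of its genes was higher and 1 lower. Clec4e, the lectin Mincle, which signals through Fcer1g, read 0.83, 3.61, -1.08 and -0.94. Its differences were 2.78 for LPS and -1.91 for LA, each against medium, and -4.55 for LPS plus LA against LPS. Cd300lb went the other way, 2.16 lower with LPS and 2.27 higher with LPS plus LA than with LPS. Under the scaling used here Tyrobp was at 7.50, 7.53, 7.49 and 7.56, within 0.07 over the 4 arrays, while Fcer1g spanned 0.63. Whole arrays moved by more than 0.07 under other scalings. In the authors' deposited table the shift was -0.23 for LPS and 0.19 for LPS plus LA, each relative to medium. The flat reading of Tyrobp, and its contrast with Fcer1g, therefore depend on the scaling.

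For LA against medium 0 of these 15 were higher and 1 was lower, beside 3.06% and 3.39% of all genes. For LPS plus LA against LPS 2 were higher and 3 lower, beside 11.5% and 12.4% of all genes. The median in the latter comparison was -0.10, and it ran from -0.12 to 0.29 relative to all genes over the scalings. A list of complement and scavenger phagocytic receptors, which also held genes that are not such receptors, among them Icam1, had 17 measured genes. With LPS 3 were higher and 3 lower, beside 8.07% and 7.6% of all genes. With LPS plus LA against LPS 2 were higher and 7 lower, beside 11.5% and 12.4%. Icam1 is counted in the 3 higher and in the 7 lower. The medians of the list were 0.13 and -0.78. Quantile normalization gave medians of -0.11 and -0.49 for these comparisons, with 4 higher and 5 lower in the latter, and the authors' deposited table gave 4 higher and 3 lower there. Icam1, a ligand for complement receptor integrins, was 3.24 higher with LPS and 3.81 lower with LPS plus LA than with LPS. Marco, a scavenger receptor, was 2.56 higher and 4.21 lower in the same comparisons. Stab1 was 1.84 lower and 2.10 higher.

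In the list of the pathway of Fcgrt, endosomal recycling, 11 of 14 genes were measured with LPS against medium, with a median of 0.20. Of these 2 were higher and 0 lower, beside 8.07% and 7.6% of all genes. The 2 higher ones were the Rab GTPase genes Rab27b (1.25) and Rab5a (1.06). Under normexp 0 were higher, and 1 under quantile normalization, under the limited percentile and in the authors' deposited table. With LA against medium 0 of 12 were 2-fold apart, beside 3.06% of all genes higher and 3.39% lower. With LPS plus LA against LPS 0 were higher and 2 lower, B2m (-1.38) and Rab5a (-1.29), beside 11.5% and 12.4% of all genes. The median of the list was -0.73. That median was -0.27 under quantile normalization, with 1 lower, and -0.31 in the authors' deposited table, with 0 lower. For LPS plus LA against LA 0 of 12 were apart, beside 0.912% of all genes higher and 1.48% lower.

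Interferon-induced genes are given beside Fcgr1, which is itself known to respond to interferon. Of 16 measured, 14 were at least 2-fold higher with LPS than in medium, 0 were lower, and the median was 3.48. With LA against medium 0 were higher and 9 lower, with a median of -1.04, and Fcgr1 was at -0.07. Normexp background correction gave 5 lower and a median of -0.53 for these genes, with Fcgr1 at -0.17. With LPS plus LA against LPS 1 was higher and 14 lower, with a median of -4.48. Gbp5, an interferon-induced GTPase, read -1.40, 4.71, -1.06 and -1.17. Rsad2 read 3.43, 8.32, 0.47 and 1.75, and so differed by -2.96 between LA and medium.

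Genes with the most similar shape over the 4 arrays were named by the distance of their 4 levels after centring each gene on its own mean, among 13367 genes. Fcgr1 was closest to A530032D15Rik (distance 0.10), Znfx1 (0.14) and Rab11fip1 (0.14). Fcgr2b was closest to C3ar1 (0.04), the receptor of complement fragment C3a, which read 4.29, 4.44, 3.67 and 3.44. Fcgr3 was closest to Thap7, Fcgr4 to Apobr, Fcer1g to Astn1 and Fcgrt to Timp2. Within the family, Fcgrt and Fcgr3 were nearest to each other (0.13), and Fcgr4 and Fcer1g next (0.33), whereas Fcgr1 lay 1.70 or more from every other member. Many genes outside the family were nearer than these. Fcgrt ranked 154 by distance from Fcgr3, and Fcgr3 ranked 124 from Fcgrt. Fcer1g ranked 397 from Fcgr4, and Fcgr4 ranked 1091 from Fcer1g. With 4 arrays a near neighbour is a description only.

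Genes next to the members in the RefSeq gene order are set beside them. Next to Fcgr1 the histone genes H4c14 and H3c13 were -0.22 and -0.28 for LPS against medium, against 2.39 for Fcgr1. Beside Fcer1g, Apoa2 was at 0.47 and B4galt3 at 0.54, against 0.63 for Fcer1g. Gm10522, which lies between Fcgr2b and Fcgr4, was well above background only with LPS (-2.96) and with LPS plus LA (-3.53). Beside Fcgrt, Nosip was at -0.94, against -0.41 for Fcgrt.

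The labelled cell type was checked on marker lists. Of 15 dendritic cell markers, 13 to 14 were well above background, with a summed level of 291 in medium, 332 after LPS, 226 after LA and 214 after LPS plus LA, and Xcr1 was not well above background on any array. Of 15 macrophage and monocyte markers, 13 to 14 were above background, at summed levels of 134 to 203, and Timd4 was not. All 14 neutrophil and granulocyte precursor markers were above background, at 721, 804, 927 and 959, and neutrophils are known to carry Fc receptors themselves. A summed level weighs the brightest genes most. For LPS against medium this sum was higher, yet the median difference of the 14 genes was -0.20. At 2-fold 0 of them were higher and 1 lower, and at 1.5-fold 0 were higher and 4 lower. Of 9 B cell and plasma cell markers only 2 to 4 were above background, with a summed level of at most 2.36, and Ms4a1, Ebf1, Vpreb3, Igll1 and Jchain were not above background on any array. T and NK cell markers summed to at most 2.30 over 10 genes, with Ncr1 and Eomes not above background. The part of these cells in the levels of the Fc receptors was not tested.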

How the data were processed

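Dendritic cell RNA was read on 4 single-colour Cy3 arrays, 1 for each group, grouped by the treatment in the labels. Per the file headers, the deposited intensity is a linear, background-subtracted signal (Feature Extraction 12.0.3.1) with no scaling from array to array; per the submitters' processing notes the version was 11.5.1.1. A further table of 31529 intensities, deposited by the authors, is that signal multiplied by a factor of its own for each array (5.82 to 9.30), linear and not centred, with column medians of 1038, 873, 1164 and 1189.

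Control spots and 129 to 154 outlier spots per array were left out. Log2 levels, computed from the deposited intensities, subtracted the 75th percentile of the array (144 to 176). Spots of a probe were averaged, and the brightest probe by its mean over the arrays stood for a gene. Of 56605 probes, 33767 matched 1 symbol of the RefSeq table (GRCm38.p6) by transcript and 22838 none; 2 of 215 list genes lacked a probe. The header build is mm9, so array coordinates were not used. The error between spots used 300 probes printed 10 times, those within 1 log2 unit of the member. Where a gene cleared background on 1 of 2 arrays, its bound used, on the dim array, its own value or the lowest signal counted as well above background there, whichever was higher. No test was possible with 1 array per group, and precision is limited by the number of arrays.

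The members and lists were chosen with earlier results of these data known. Genes named are the members, the other Fc receptors, the 2 highest and 2 lowest differences of each list, the 3 nearest patterns and the 3 neighbours on each side, of which examples are given and some are not reported here; other list members are named for their role and were chosen after their values were seen. Promoter windows come from RefSeq (GRCm38.p6), which held all 6 members, with 2 windows for Fcgr3 and the shown one the first. Alternatives were normexp background correction (offset 50, on the median spot signal), quantile normalization, median scaling, a percentile limited to probes that were above background everywhere, the table of the authors, the mean of all probes, no filter on dim probes, and 1.5-fold. The calculation was tested on simulated data. Python 3.11.15, numpy 2.4.6, pandas 2.3.3, matplotlib 3.10.9, R 4.3.3 and limma 3.58.1 were used.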

Additional observations from a re-analysis of the deposited data

Results flagged for a closer look

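Fcgr1 met the mark for effects that point in opposite directions. Its LPS difference was 2.39 without LA and -0.36 with LA, and the difference between these was not tested, since each group was 1 array. Fcgr2b met the same mark on its brighter probe, with an LPS difference of 0.16 without LA and -0.22 with LA. The former changed sign with the scaling, the dimmer probe (0.44 and -0.03) did not meet the mark, and the difference was not tested. Fcgr4 had an LA difference of 0.45 without LPS and -0.32 with LPS, of which the latter changed sign with the scaling, and this difference was not tested either.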

How the results depend on the processing

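Over 8 alternatives, 89 of the values for 12 counts of members 2-fold apart stayed within 1.5 times the count reported, and 7 did not. Dropping the filter on dim probes could not move any of the 12 counts, because no member probe was dim. Averaging probes could move Fcgr2b only, as the other members had a single probe. Part of the 89 was therefore fixed beforehand and says nothing about how stable the counts are. For LPS plus LA against LPS, the count of lower members was 1 in place of 2 under quantile normalization, under the percentile limited to probes that were above background everywhere, and in the table of the authors. With 1.5-fold in place of 2-fold, 3 members were higher for LPS against medium in place of 1, 1 was lower for LA against medium in place of 0, 1 was lower for LPS plus LA against medium in place of 0, and 3 were lower on the difference of differences in place of 1. Of 36 member differences 12 changed sign under some alternative, and of the 4 that were 2-fold apart 0 did. No paired analysis was possible because each group had 1 array. Leaving out a replicate was not possible for the same reason. The values compare 4 arrays and carry no spread between cultures, and Fcgrt, the probe nearest to background, has the widest error between spots.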
